A study of Mus musculus with 9 samples.

Results

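The collagen chains are the genes whose symbols read Col, a type number, the letter a and a chain number. Of 24013 gene symbols measured, 44 had this form, and 26 of the 44 reached the level set for testing, which was 1 RPKM or more in 3 or more of the 9 libraries. RPKM is the number of reads per kilobase of exon per 1000000 assigned reads, so levels can be compared between genes. The libraries were made from poly(A) RNA of cultured mouse adipocytes differentiated from stromal vascular fraction cells of fat (labelled ingSVF) and taken on day 7. There were 3 libraries of F1 offspring, 3 of the strain 129X1/SvJ (129), described in the series as resistant to obesity, and 3 of C57BL/6J (B6), described as prone to it. Every culture had been induced at confluence for 48 hours with dexamethasone (1 µM), isobutylmethylxanthine (0.5 mM) and indomethacin (125 nM). Rosiglitazone (1 µM), T3 (1 nM), insulin (850 nM) and serum (10%) were given during that time and afterwards. The labels give no age or sex of the mice, do not tie the libraries of a group to different mice or dishes, and do not say which parental strain was the dam of the F1. The p-values therefore measure the spread between these libraries, which may be technical.

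Collagens are the main structural proteins of the matrix between cells. Their chains are hydroxylated on proline and lysine in the endoplasmic reticulum, wound into a triple helix, secreted, trimmed and crosslinked. Types I, III and V make the fibrils of fat tissue, type VI makes beaded filaments close to the cells, and type IV makes the sheet-like network of the basement membrane that surrounds each adipocyte.

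Depth, in units of 1000000 assigned reads, was 39.7 to 53.4 in F1 libraries, 23.7 to 28.5 in 129 libraries and 19.1 to 26.9 in B6 libraries. The label adipocyte was checked against 8 markers, all of which were above the testing level, with a summed RPKM of 35658 to 38129 in F1, 31751 to 34279 in 129 and 27881 to 31918 in B6. Fabp4 made up most of these sums, and the other 7 markers summed to 5862 to 6040 in F1, 6291 to 6644 in 129 and 6027 to 7064 in B6, with 1 of the 8 called higher (Cidec) and 2 lower (Adipoq and Slc2a4) in 129 than in B6. Markers of progenitors and fibroblasts, the other main collagen-making cells of such cultures, summed to 640 to 724 RPKM in F1, 887 to 930 in 129 and 830 to 977 in B6. Ly6a was the most abundant of them, with a mean of 296 RPKM in F1, 340 in 129 and 411 in B6. Every other marker on that list had a higher mean in 129 than in B6, by 1.03 (Thy1) to 1.85 times (Pdgfra). Cultures were bulk samples, so fewer cells of a type and less RNA per cell cannot be told apart.

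Collagen RNA made up more of the 129 libraries than of the others. All 44 chains together took 3.09% ± 0.187 of the assigned reads in F1, 4.03% ± 0.153 in 129 and 3.07% ± 0.112 in B6 (SD, n = 3 each). The 129 libraries, at 3.86% to 4.16%, lay above every F1 library (2.94% to 3.3%) and every B6 library (2.94% to 3.15%), and the F1 and B6 ranges overlapped. Fibrillar chains held 63.0% ± 1.0 of the summed collagen RPKM in F1, 68.0% ± 0.306 in 129 and 60.6% ± 0.681 in B6. The basement membrane pair Col4a1 and Col4a2 ran the other way, with 10.2% ± 0.386 in F1, 7.52% ± 0.268 in 129 and 12.3% ± 0.85 in B6. Col3a1, Col1a1 and Col1a2 led the levels, and 11 chains were at 100 RPKM or more in every library.

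**Figure D1:**
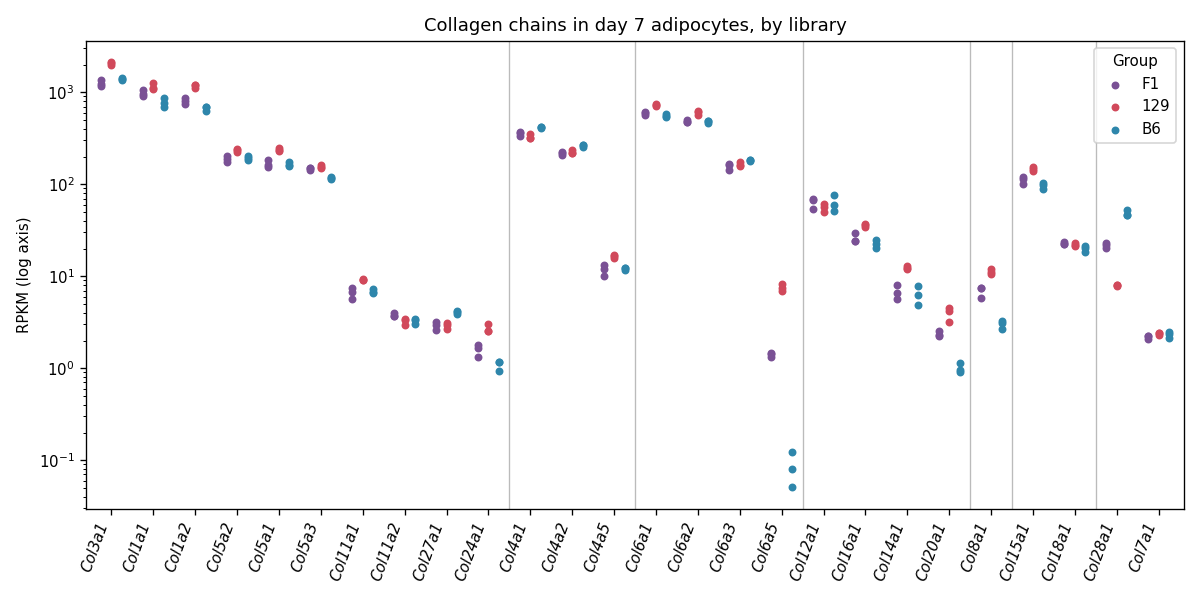
RPKM (log axis) of the 26 tested collagen chains in each library, grouped by kind of collagen between the vertical lines, with F1 on the left, 129 in the middle and B6 on the right for each chain. Col6a5 spans the widest range, at 1.33 to 1.46 in F1, 6.97 to 8.32 in 129 and 0.0506 to 0.122 in B6.

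Most tested chains were higher in 129 than in B6. Of the 26, 17 were higher, 4 were lower (Col4a1, Col4a2, Col27a1 and Col28a1) and 5 were not called (Col6a3, Col7a1, Col11a2, Col12a1 and Col18a1), where called means an adjusted p under 0.05 in limma's moderated test with Benjamini-Hochberg adjustment over all 11542 genes tested. That is 80.8% of the tested chains, against 37.5% of all genes tested called in this comparison, 15.9% higher and 21.7% lower. The median log2 fold change, on the log2(RPKM + 1) scale, was 0.39 over the 26 chains and -0.03 over all genes tested. The 3 libraries of 129 did not overlap those of B6 for 23 of the chains (88.5%), against 49.9% of all genes tested. Among the fibroblast and progenitor markers, 3 of 7 tested were higher in 129 (Pdgfra, Cd34 and Dpt), and their part in the collagen difference was not tested. A test over the 3 groups together called 24 of the 26 chains, against 47.2% of all genes tested.

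The F1 libraries divided the chains otherwise. Against B6, 9 chains were higher in F1, 5 lower and 12 not called, with 31.2% of all genes tested called, 11.0% higher and 20.2% lower. The chain median was 0.06 and that of all genes tested -0.04. The 9 higher calls became 4 without F1 replicate 2 and 5 without B6 replicate 3. Against 129, 2 chains were higher in F1 (Col28a1 and Col11a2), 15 lower and 9 not called, with 27.7% of all genes tested called, 12.0% higher and 15.7% lower. Here the chain median was -0.31 and that of all genes tested -0.01. Each pair of these comparisons shares a group of libraries, so their results are not independent. Fibroblast and progenitor markers were lower in F1 for 6 of 7 tested against B6 and for 6 of 7 against 129, and what they contribute here was not tested.

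**Figure D2:**
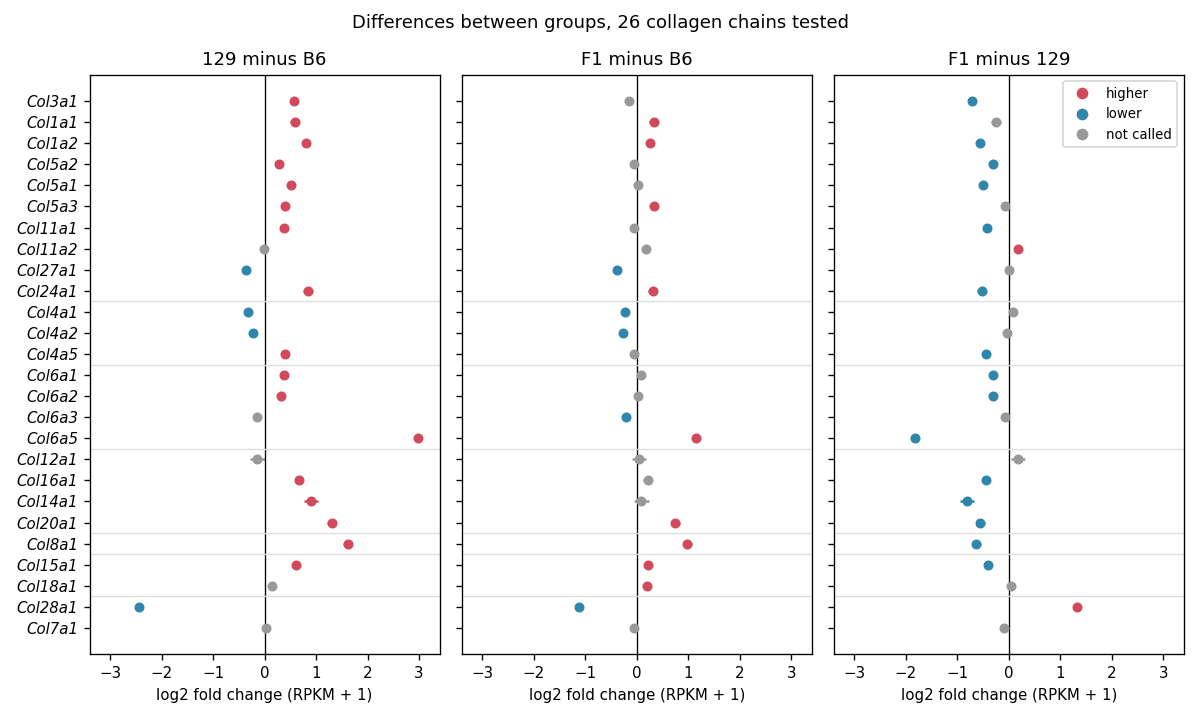
Log2 fold change (points) with its standard error (bars) for each tested chain, on the log2(RPKM + 1) scale, in 129 minus B6, F1 minus B6 and F1 minus 129, with red for chains called higher, blue for lower and grey for not called. In 129 minus B6 the fibrillar chains stand mainly on the right and Col28a1, at -2.45, is farthest to the left.

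Of the 10 tested fibrillar chains, 8 were higher in 129 than in B6, Col27a1 was lower and Col11a2 was not called. The shares over all genes tested were 15.9% higher and 21.7% lower. Type III collagen, a homotrimer of Col3a1 chains in the fine fibrils of soft tissue, had the highest RNA level of the family. Col3a1 (mm9 chr1:45368383-45406551, plus strand, 51 exons) had 1183, 1364 and 1244 RPKM in F1, 2140, 2066 and 1982 in 129, and 1437, 1398 and 1353 in B6. Each 129 library exceeded all others, whereas F1 overlapped B6 through a single library. The log2 fold change was 0.56 ± 0.07 (SE, adjusted p = 9.54e-05, limma) for 129 minus B6, -0.71 ± 0.07 (adjusted p = 4.88e-05) for F1 minus 129 and -0.15 ± 0.07 (adjusted p = 0.134) for F1 minus B6.

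Type I collagen, the main fibril former, combines Col1a1 and Col1a2 chains in a molecule. Col1a1 had 963, 1058 and 905 RPKM in F1, 1125, 1247 and 1094 in 129, and 768, 866 and 694 in B6. Col1a2 had 796, 863 and 750 RPKM in F1, 1193, 1212 and 1122 in 129, and 697, 698 and 631 in B6. For both chains the groups did not overlap and F1 lay between the parents, but the distance differed. Col1a2 was higher in 129 than in B6 by 0.80 ± 0.07 on the log2 scale (adjusted p = 7.49e-06, limma) and F1 was lower than 129 by a log2 fold change of -0.55 ± 0.07. Col1a1 was higher in 129 by 0.58 ± 0.09 (adjusted p = 0.00058), and its F1 minus 129 value of -0.25 ± 0.09 was not called (adjusted p = 0.0715). Both were higher in F1 than in B6, by 0.33 ± 0.09 for Col1a1 and 0.25 ± 0.07 for Col1a2, calls that were lost without F1 replicate 2 or B6 replicate 3, and for Col1a1 also without B6 replicate 1. With no filter on low genes the adjusted p was 0.0593 for Col1a1 and 0.0577 for Col1a2.

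Type V chains nucleate fibrils and limit their width. Col5a1 had 154, 182 and 162 RPKM in F1, 234, 247 and 228 in 129, and 161, 175 and 156 in B6. Col5a2, which lies tail to tail with Col3a1 on chromosome 1 at a distance of 24624 bases, had 173, 204 and 187 in F1, 241, 234 and 225 in 129, and 202, 195 and 185 in B6. In both chains F1 overlapped B6 and lay below 129. The third type V chain stood apart, since Col5a3 had 144, 151 and 150 RPKM in F1, 149, 163 and 154 in 129, and 117, 121 and 114 in B6. Its F1 libraries thus sat at the 129 level, 0.33 ± 0.05 above B6 on the log2 scale (adjusted p = 0.000431, limma) and -0.07 ± 0.05 from 129 (adjusted p = 0.301).

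The scarcer fibrillar chains did not share a direction. Col11a1, a fibril nucleator known from cartilage, had 5.65, 7.51 and 6.74 RPKM in F1, 9.28, 9.2 and 9.19 in 129, and 6.82, 6.55 and 7.18 in B6. Its partner Col11a2 had 3.7, 4.03 and 3.73 RPKM in F1, 2.98, 3.35 and 3.41 in 129, and 3.41, 3.01 and 3.37 in B6. Col11a1 was higher in 129 by 0.38 ± 0.08, whereas Col11a2 was highest in F1, a call against 129 (0.18 ± 0.06, adjusted p = 0.0477, limma) that was lost when any library other than B6 replicate 2 was left out, and with no filter. Col27a1 had 2.59, 3.18 and 2.95 RPKM in F1, 2.96, 3.12 and 2.65 in 129, and 4.18, 4.12 and 3.87 in B6, so F1 and 129 overlapped and both lay below B6. Col24a1 averaged 1.58 ± 0.241 RPKM in F1, 2.73 ± 0.276 in 129 and 1.08 ± 0.135 in B6 (SD, n = 3 each), and 1 of its B6 libraries was under 1 RPKM. Summed RPKM of 8 cartilage and bone markers was 9.34 to 10.8 in F1, 9.32 to 10.4 in 129 and 18.6 to 19.9 in B6, and their part in these values was not tested. Of the 3 such markers tested, Comp was lower in 129 than in B6 (-1.28 ± 0.08), Runx2 was higher (0.22 ± 0.07) and Sox9 was not called. Comp was the most abundant of the 8 and made up most of the B6 sum. It averaged 4.63 RPKM in F1, 5.04 in 129 and 13.7 in B6, against 3.82, 3.31 and 3.81 for Sox9.

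**Figure D3:**
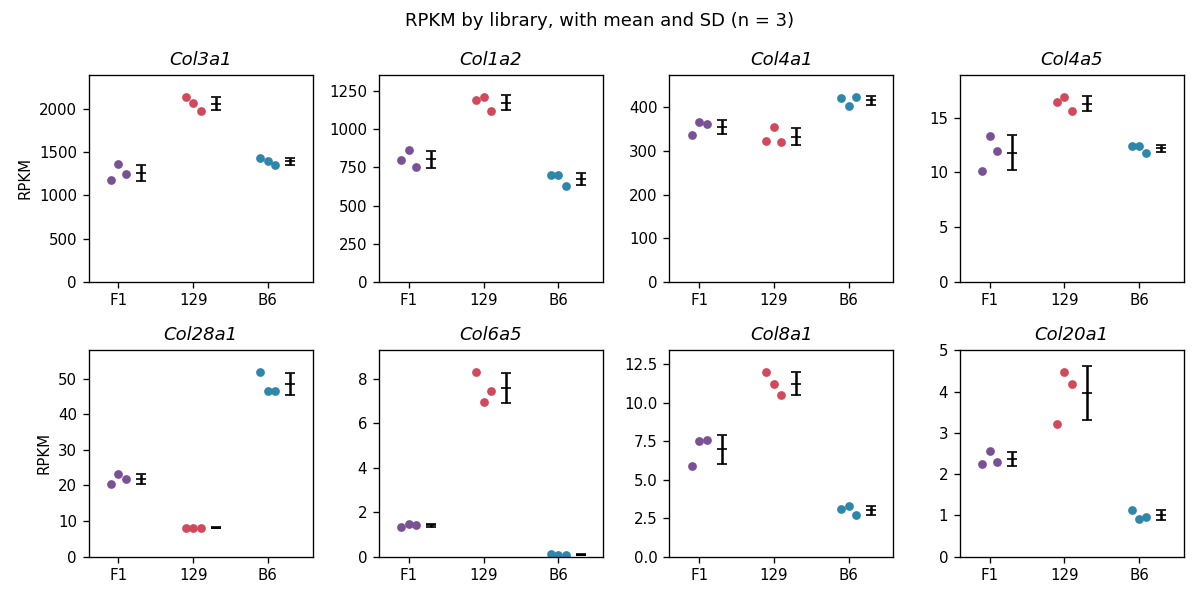
RPKM in each library (points) with mean and SD (bars, n = 3) for 8 chains, F1 left, 129 middle and B6 right, each panel with its own axis from 0. Col3a1 and Col4a5 are highest in 129 with F1 near B6, Col4a1 is lowest in 129 and F1, and Col28a1 falls to 7.9 to 8.13 RPKM in 129 against 46.5 to 51.9 in B6.

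The major basement membrane chains were lower in 129 and in F1 than in B6. Col4a1 and Col4a2, which form the type IV molecule found in nearly all basement membranes, are transcribed head to head on chromosome 8, 2 bases apart in the files' mm9 coordinates. Col4a1 had 336, 366 and 361 RPKM in F1, 322, 355 and 321 in 129, and 421, 404 and 424 in B6. Col4a2 had 208, 226 and 221 RPKM in F1, 217, 237 and 221 in 129, and 269, 251 and 270 in B6. All F1 and 129 libraries lay below all B6 libraries for both chains, and F1 overlapped 129. For 129 minus B6 the log2 fold change was -0.32 ± 0.06 for Col4a1 (adjusted p = 0.0011, limma) and -0.23 ± 0.05 for Col4a2 (adjusted p = 0.00659), and for F1 minus B6 it was -0.23 ± 0.06 and -0.27 ± 0.05 in the same order of chains.

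Col4a5, a type IV chain that pairs with Col4a3 and Col4a4 or with Col4a6, went the other way. It had 10.1, 13.3 and 12.0 RPKM in F1, 16.4, 16.9 and 15.6 in 129, and 12.4, 12.4 and 11.8 in B6, with the 129 libraries above all others. The log2 fold change was 0.39 ± 0.08 (adjusted p = 0.0027, limma) for 129 minus B6 and -0.44 ± 0.08 (adjusted p = 0.00213) for F1 minus 129. Its partner Col4a6 is its head to head neighbour on chromosome X, 1342 bases away, and stayed below the testing level, with 0.292, 0.431 and 0.341 RPKM in F1, 0.0253, 0.0423 and 0.0571 in 129, and 0.311, 0.322 and 0.279 in B6. The 2 neighbours thus differed in opposite directions between the strains: 21 reads of Col4a6 were assigned in the 129 libraries together, against 144 in B6. Endothelial cells also make type IV collagen. Their 8 markers summed to 4.77 to 5.04 RPKM in F1, 3.12 to 4.03 in 129 and 5.79 to 7.06 in B6, of which 5 were under 1 RPKM in every library, and 2 of 2 tested were lower in 129. Smooth muscle markers, another source, summed to 121 to 127 in F1, 145 to 155 in 129 and 159 to 172 in B6. Of 7 tested, 5 were lower in 129 than in B6, 6 were lower in F1 than in B6, and 0 were higher in either comparison. Over all genes tested, 21.7% were called lower in 129 and 20.2% lower in F1 than in B6. What either list contributes was not tested.

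Type VI collagen, abundant in fat, joins Col6a1 and Col6a2 with a longer chain, Col6a3 in most tissues or Col6a4, Col6a5 or Col6a6 elsewhere. Col6a1 had 568, 615 and 588 RPKM in F1, 729, 746 and 705 in 129, and 553, 584 and 537 in B6. Col6a2 had 471, 503 and 481 RPKM in F1, 607, 618 and 570 in 129, and 485, 493 and 460 in B6. In both, 129 stood above the other groups, which overlapped, with a 129 minus B6 log2 fold change of 0.38 ± 0.05 (adjusted p = 0.000279, limma) for Col6a1 and 0.32 ± 0.05 (adjusted p = 0.00087) for Col6a2. Col6a3, whose cleaved end is known as endotrophin, did not share this pattern, with 143, 166 and 163 RPKM in F1, 163, 175 and 158 in 129, and 183, 185 and 178 in B6. Its B6 libraries were the highest, the 129 minus B6 value of -0.14 ± 0.06 was not called (adjusted p = 0.112), and the F1 minus B6 value of -0.21 ± 0.06 was (adjusted p = 0.0259), though not without F1 replicate 1, B6 replicate 1 or B6 replicate 2, nor after median-of-ratios rescaling (-0.15, adjusted p = 0.0831).

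Col6a5 showed the widest strain difference of the family. This chain, known chiefly from skin and a few other tissues in humans, had 1.33, 1.46 and 1.43 RPKM in F1, 8.32, 6.97 and 7.46 in 129, and 0.122, 0.0506 and 0.0799 in B6. No group overlapped another. Mean RPKM in 129 was 90.3 times that in B6, where only 58 reads were assigned over the 3 libraries, and it passed the testing level through F1 and 129 alone. The log2 fold change on the RPKM + 1 scale, which understates changes at such levels, was 2.98 ± 0.07 for 129 minus B6 (adjusted p = 3.64e-10, limma), 1.15 ± 0.07 for F1 minus B6 (adjusted p = 1.69e-06) and -1.83 ± 0.07 for F1 minus 129 (adjusted p = 7.48e-08). Of all genes tested, 15.9% were called higher and 21.7% lower in 129 than in B6. Within 500 kb of Col6a5 on chromosome 9, 15 other genes were tested. Of those 15, 2 were higher and 11 lower in 129, with log2 fold changes of -1.36 to 0.27. One of its neighbours in the Col6a4, Col6a5 and Col6a6 row of genes, Col6a6, was below the testing level at 0.229 to 0.366 RPKM in F1, 0.658 to 0.799 in 129 and 0.063 to 0.0994 in B6. Col6a4 had at most 0.113 RPKM in any library.

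Because Col6a5, Col28a1 and Col8a1 had the 3 largest log2 differences between the strains, the 250 bases upstream of their RefSeq starts are printed, 5′ to 3′ on the gene's strand, from the GRCm38.p6 reference of C57BL/6J. The windows are chr9:105960644-105960893 (minus strand), chr6:8192618-8192867 (minus strand) and chr16:57754738-57754987 (minus strand). Capitals mark matches, on either strand, to the TATA box TATAAA, the CCAAT box CCAAT, the GC box GGGCGG and TTGGC, the half-site of the NFI family, to which the NFIA of the series title belongs. A TTGGC match can overlap a CCAAT match on the other strand.

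Col6a5: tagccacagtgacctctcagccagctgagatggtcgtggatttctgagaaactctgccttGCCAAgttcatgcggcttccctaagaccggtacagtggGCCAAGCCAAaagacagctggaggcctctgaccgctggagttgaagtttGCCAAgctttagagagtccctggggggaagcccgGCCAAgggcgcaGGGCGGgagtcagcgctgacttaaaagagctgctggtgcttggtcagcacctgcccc
Col28a1: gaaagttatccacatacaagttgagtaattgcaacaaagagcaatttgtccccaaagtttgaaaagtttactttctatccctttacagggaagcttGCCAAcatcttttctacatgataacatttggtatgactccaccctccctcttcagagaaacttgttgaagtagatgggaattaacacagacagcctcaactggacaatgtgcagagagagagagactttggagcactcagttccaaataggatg
Col8a1: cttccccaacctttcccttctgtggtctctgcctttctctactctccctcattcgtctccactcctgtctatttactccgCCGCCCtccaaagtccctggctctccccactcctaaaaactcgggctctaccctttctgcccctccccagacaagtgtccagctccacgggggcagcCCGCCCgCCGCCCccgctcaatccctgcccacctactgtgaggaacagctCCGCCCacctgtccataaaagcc

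The Col6a5 window held 5 matches to TTGGC, all on the opposite strand as GCCAA, and 1 GC box. Col28a1 had 1 TTGGC match and Col8a1 had 4 GC boxes. Such matches are common: of 32851 RefSeq promoter windows of this length, 12.4% held TATAAA, 33.8% CCAAT, 32.7% GGGCGG and 41.5% TTGGC. Of the 38 windows of 35 collagen symbols the shares were 13.2%, 34.2%, 57.9% and 36.8%. At least 5 matches to TTGGC stood in 28 of all windows (0.0852%), and the Col6a5 window was the 1 collagen window among them. That cutoff equals the Col6a5 count, so the place of Col6a5 among them was fixed in advance and tests nothing. The full NFI palindrome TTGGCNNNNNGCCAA was in 0.0365% of all windows and in 0 collagen windows. Letters that match are a description of the reference sequence, and the sequence of the 129 strain was not used here.

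Among the tested chains, Col28a1 had the lowest log2 fold change in 129 minus B6. Type XXVIII collagen is known from the sheaths of peripheral nerves in mice. Col28a1 (mm9 chr6:7947808-8142617, minus strand, 35 exons) had 20.4, 23.1 and 21.7 RPKM in F1, 7.9, 8.1 and 8.13 in 129, and 51.9, 46.5 and 46.6 in B6. The groups were far apart compared with the spread within them, with F1 between the parents. Mean RPKM in 129 was 0.166 times that in B6, with a log2 fold change of -2.45 ± 0.06 (adjusted p = 3.64e-10, limma), and F1 differed from B6 by -1.12 ± 0.06 (adjusted p = 4.79e-07) and from 129 by 1.33 ± 0.06 (adjusted p = 1.4e-07). Of 6 other genes tested within 500 kb, 3 were lower in 129 and the rest were not called, with log2 fold changes of -0.5 to 0.03. Over all genes tested, 15.9% were called higher and 21.7% lower in 129. Schwann and glial markers summed to 12.3 to 12.6 RPKM in F1, 26.0 to 27.9 in 129 and 8.82 to 9.79 in B6, in the opposite order to Col28a1. Among them Ngfr was higher in 129, and the lineage-defining Sox10 was at no more than 0.062 RPKM in any library.

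Col8a1 and Col20a1 were also higher in 129 by more than 1 on the log2 scale. Col8a1, a short chain that builds lattices in vessel walls and the cornea, had 5.86, 7.5 and 7.54 RPKM in F1, 12.0, 11.2 and 10.5 in 129, and 3.08, 3.26 and 2.7 in B6. Col20a1, related to the chains that coat fibrils, had 2.24, 2.56 and 2.3 RPKM in F1, 3.22, 4.48 and 4.19 in 129, and 1.14, 0.911 and 0.957 in B6. Both formed 3 separate steps with F1 in the middle. The 129 mean was 3.73 times the B6 mean for Col8a1 (log2 fold change 1.61 ± 0.09, adjusted p = 2.86e-07, limma) and 3.96 times for Col20a1 (1.30 ± 0.09, adjusted p = 2.01e-06), whose B6 libraries were under 1 RPKM in 2 of 3. All genes tested held 2.42% with a called log2 fold change of at least 1 in size between 129 and B6, and the 26 chains held 4. Within 500 kb of Col8a1, 2 of 5 other genes tested were higher and 1 was lower in 129. Within 500 kb of Col20a1, 3 of 16 were lower and the rest were not called. The shares over all genes tested were 15.9% higher and 21.7% lower.

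The other chains that sit on fibrils or in the basement membrane zone were higher in 129 or not called. Col14a1, which binds fibrils, averaged 6.75 ± 1.16 RPKM in F1, 12.5 ± 0.376 in 129 and 6.35 ± 1.5 in B6. Col16a1, of the same kind, averaged 26.1 ± 3.12 RPKM in F1, 35.8 ± 1.24 in 129 and 22.4 ± 2.07 in B6, and Col15a1, a multiplexin of basement membranes, averaged 112 ± 9.27 in F1, 148 ± 7.42 in 129 and 96.4 ± 6.77 in B6. All of these were higher in 129 than in B6 (log2 fold changes of 0.90, 0.66 and 0.61 in that order) and lower in F1 than in 129 (-0.81, -0.45 and -0.40). Col18a1, the source of endostatin, averaged 22.8 ± 0.424 RPKM in F1, 22.1 ± 0.756 in 129 and 20.0 ± 1.51 in B6, and only F1 minus B6 was called for it (0.19 ± 0.05, adjusted p = 0.0239, limma), a call lost without F1 replicate 2, F1 replicate 3 or B6 replicate 2. Col12a1, a fibril-binding chain, averaged 63.5 ± 8.67 RPKM in F1, 55.6 ± 5.23 in 129 and 62.1 ± 12.2 in B6. The anchoring fibril chain Col7a1 averaged 2.18 ± 0.108 RPKM in F1, 2.38 ± 0.057 in 129 and 2.32 ± 0.187 in B6 (SD, n = 3 each), and neither chain was called in any of the comparisons by limma.

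Ratios of RPKM between chains were computed within each library, 7 in all, and compared by exact two-sided permutation tests, which cannot give a p below 0.1 here and so cannot pass the threshold. Col1a1 over Col1a2 was 1.21 ± 0.0109 in F1, 0.982 ± 0.0434 in 129 and 1.15 ± 0.0806 in B6 (SD, n = 3 each), so 129 was below the others (exact p = 0.1 against each). Col6a3 over Col6a1 was 0.266 ± 0.0133 in F1, 0.228 ± 0.00656 in 129 and 0.326 ± 0.0085 in B6, in 3 steps. Col3a1 over Col1a1 was 1.3 ± 0.0739 in F1, 1.79 ± 0.124 in 129 and 1.81 ± 0.175 in B6. In that ratio the parents overlapped (exact p = 0.9) and all F1 libraries were below both (exact p = 0.1 against each). Col4a1 over Col4a2 moved little, at 1.62 ± 0.00918 in F1, 1.48 ± 0.0224 in 129 and 1.58 ± 0.0232 in B6, although the groups did not overlap. Col5a1 over Col5a2 was 0.884 ± 0.0127 in F1, 1.01 ± 0.0446 in 129 and 0.847 ± 0.0493 in B6. Col6a1 over Col6a2 was 1.22 ± 0.00936 in F1, 1.22 ± 0.019 in 129 and 1.16 ± 0.0222 in B6. Basement membrane against fibril chain, Col4a1 over Col1a1, was 0.364 ± 0.0296 in F1, 0.288 ± 0.00463 in 129 and 0.541 ± 0.0723 in B6.

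**Figure D4:**
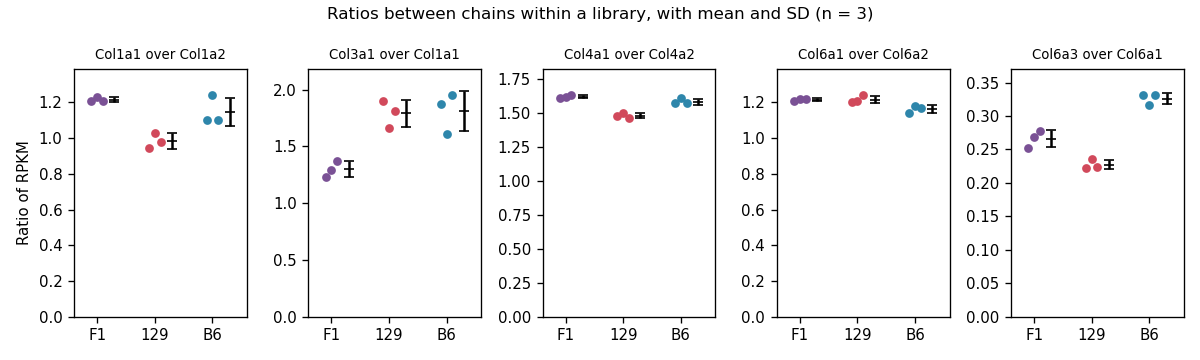
Ratio of the RPKM of chains within each library (points) with mean and SD (bars, n = 3), F1 left, 129 middle and B6 right, each axis starting at 0. Col3a1 over Col1a1 is lower in F1 (1.23 to 1.37) than in both parents, and Col6a3 over Col6a1 forms 3 separate levels.

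The F1 level was then set against a mid-parent value midway between the log2 means of 129 and B6. Of the 26 chains, 9 were below it, 2 were above it and 15 were not called, with 23.2% of all genes tested called, 14.8% below and 8.35% above. The chain median was -0.12 and that of all genes tested -0.03. Below were Col3a1 (-0.43 ± 0.06, adjusted p = 0.000773, limma), Col6a5 (-0.34 ± 0.06, a sign that changed with the pseudocount), Col4a5 and Col5a1 (both -0.25), Col11a1 (-0.24), Col27a1 (-0.19), Col5a2 (-0.18), Col4a2 (-0.16) and Col6a2 (-0.14). Col4a5 lies on chromosome X, and the labels give neither the sex of the mice nor the dam of the F1. The mid-parent value may therefore not be the level to expect for Col4a5. Above the mid-parent value were Col11a2 (0.18) and Col5a3 (0.13). Many of these calls depended on single libraries. The lower calls numbered 2 without F1 replicate 1 or without F1 replicate 3, 4 without 129 replicate 2, and 5 without 129 replicate 1 or without B6 replicate 1, and the higher calls 0 without F1 replicate 2, F1 replicate 3 or 129 replicate 1. After median-of-ratios rescaling of the libraries, 5 were below and 4 above. Col3a1 was called below in every one of these settings, at a mean F1 RPKM that was 0.731 of the arithmetic mean of the parents.

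Direction for Col6a5 turned with the scale, since it was 0.35 above the mid-parent value at a pseudocount of 0.1 (adjusted p = 0.0746) and 0.82 above it with voom on recovered reads (adjusted p = 0.00107). Its mean F1 RPKM was 0.366 of the arithmetic mean of the parents. For the other 3 chains with a log2 strain difference above 1, mean F1 RPKM was 0.771 (Col28a1), 0.976 (Col8a1) and 0.952 (Col20a1) of that arithmetic mean, and none was called against the mid-parent log2 value. Of the 21 chains called in 129 minus B6, the F1 mean lay between the parental means for 15 and below both for 6 (Col3a1, Col4a2, Col4a5, Col5a2, Col11a1 and Col27a1), as a description of means that share the parental libraries. For each of those 6, F1 was not called against the nearer parent. The position of the F1 mean was not counted over all genes tested, of which 14.8% were called below the mid-parent value and 8.35% above. Col27a1 averaged 2.91 RPKM in both F1 and 129.

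The 18 chains below the testing level had few reads. RPKM was under 0.5 in every library for 15 of them and under 0.2 for 13, and no read was assigned to Col9a1, for which 3 reads, the upper limit that a count of 0 allows, would be 0.00505 RPKM over the F1 libraries, 0.00953 over 129 and 0.0101 over B6. Col2a1, the fibrillar chain of cartilage, had at most 0.0407 RPKM, and the transmembrane chains Col13a1, Col17a1, Col23a1 and Col25a1 were all under 1. When every gene with any read was tested, 26.1% of 19079 genes were called in 129 minus B6 and 5 of the 18 chains were among them. Col6a6 and Col4a4 were higher in 129, by 0.69 ± 0.05 and 0.06 ± 0.02, and Col23a1, Col4a6 and Col26a1 were lower, by -0.33 ± 0.03, -0.32 ± 0.04 and -0.09 ± 0.02 (limma, adjusted p = 1.83e-05 to 0.0204). These values rest on few reads and are small on the log2(RPKM + 1) scale.

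Genes that modify and process collagen were taken from a list of 53, of which 42 were tested. In 129 minus B6, 17 were higher, 7 lower and 18 not called, with a median of 0.12 against -0.03 over all genes tested, of which 15.9% were called higher and 21.7% lower. Enzymes of proline and lysine hydroxylation and glycosylation accounted for 10 of the 17, out of 13 tested. Plod2, the lysyl hydroxylase of the collagen ends, had 43.6, 47.8 and 47.2 RPKM in F1, 90.6, 83.8 and 82.7 in 129, and 27.8, 30.3 and 24.5 in B6, so its groups were separate steps. Its log2 fold change was 1.61 ± 0.07 (adjusted p = 5.77e-08, limma). P4ha3, a prolyl 4-hydroxylase subunit, had 10.8, 12.4 and 11.3 RPKM in F1, 23.3, 21.1 and 19.5 in 129, and 8.29, 9.68 and 6.13 in B6, a log2 fold change of 1.32 ± 0.12. P4ha1, the main subunit, had 84.2, 83.5 and 81.7 RPKM in F1, 91.7, 91.3 and 89.0 in 129, and 65.0, 76.0 and 64.2 in B6. Crtap, part of the prolyl 3-hydroxylase complex, had 59.5, 60.6 and 55.0 in F1, 78.4, 74.2 and 79.3 in 129, and 59.8, 57.8 and 59.5 in B6. Both were higher in 129 than in B6, by 0.41 ± 0.06 and 0.38 ± 0.05, while F1 was near 129 for P4ha1 and near B6 for Crtap.

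Beyond hydroxylation the list was mixed. The crosslinking enzyme Loxl2 had 79.3, 87.8 and 87.2 RPKM in F1, 104, 107 and 98.2 in 129, and 60.4, 68.7 and 55.6 in B6, and was higher in 129 by 0.74 ± 0.07 (adjusted p = 2.1e-05, limma), 1 of 2 crosslinkers called higher of 5 tested. Adamts2, which removes the amino-terminal propeptide, had 43.9, 45.7 and 41.8 RPKM in F1, 58.6, 60.6 and 57.1 in 129, and 49.5, 49.0 and 45.9 in B6 (0.28 ± 0.05). Pcolce2, an enhancer of carboxy-terminal cleavage, was lower in 129 by -0.59 ± 0.06, with 1.11, 1.17 and 1.13 RPKM in F1, 1.58, 1.43 and 1.36 in 129, and 2.51, 2.86 and 2.71 in B6. Prcp, a prolyl carboxypeptidase listed with breakdown, had 4.34, 4.78 and 4.6 RPKM in F1, 5.91, 5.84 and 6.29 in 129, and 4.46, 3.86 and 4.11 in B6 (0.45 ± 0.06). Of the collagen receptors, 1 was higher and 3 were lower in 129 out of 7 tested. Of the folding and export genes, 1 was higher and 1 lower out of 8, where 15.9% of all genes tested were higher and 21.7% lower. The 7 lower calls became 3 after median-of-ratios rescaling, with 22 higher, and numbered 2 without B6 replicate 1, 3 without 129 replicate 1 or 129 replicate 3, and 4 without 129 replicate 2. In F1 minus B6, 7 of the 42 were higher and 14 lower, where 11.0% of all genes tested were higher and 20.2% lower. In F1 minus 129, 1 was higher and 22 lower, where 12.0% of all genes tested were higher and 15.7% lower.

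**Figure D5:**
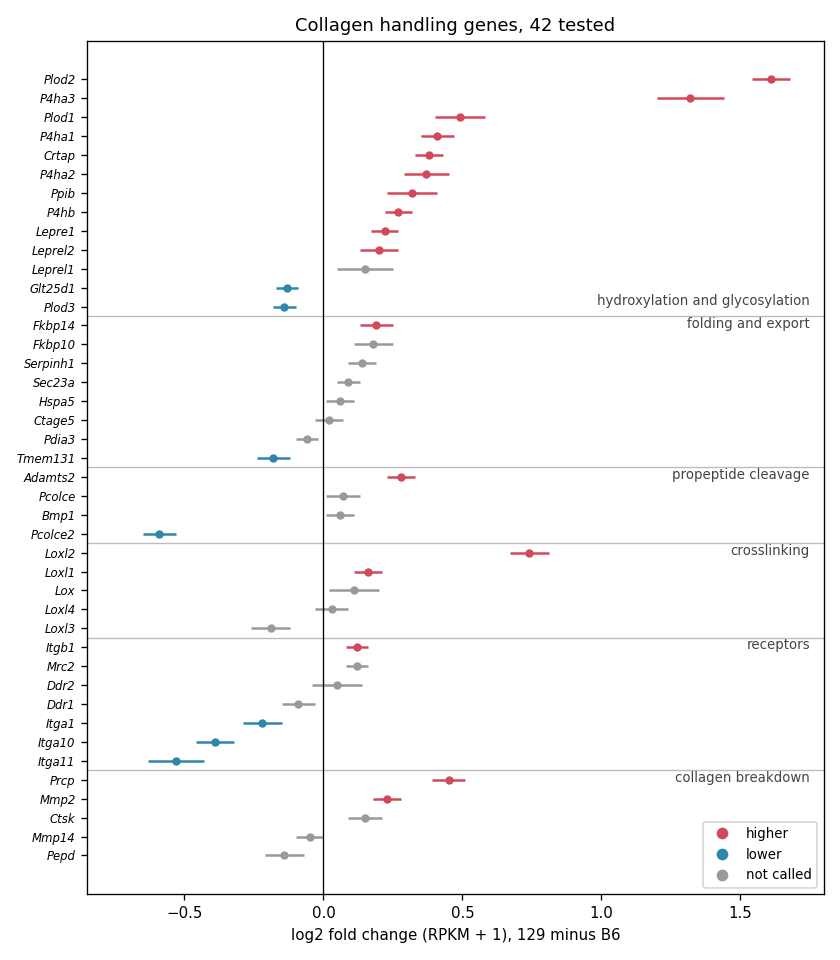
Log2 fold change (points) and standard error (bars) in 129 minus B6, on the log2(RPKM + 1) scale, for the 42 tested genes of collagen modification, folding, cleavage, crosslinking, binding and breakdown, with red for higher, blue for lower and grey for not called. Plod2 (1.61) and P4ha3 (1.32) stand farthest to the right and Pcolce2 (-0.59) farthest to the left.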

How the data were processed

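Poly(A) RNA was sequenced with a stranded TruSeq kit, per the labels' protocols. The values deposited by the authors were RPKM per gene, and the submitters' processing notes name STAR and mm9. For the read counter, its strand setting and any filter, nothing is stated in the labels or files used. Without the strand setting, reads of overlapping genes on opposite strands cannot be told apart, which among collagens touches Col9a3 (229 bases shared with Tcfl5). RPKM times exon length gave whole reads, within 0.1 read, for 100% of non-zero rows after rounding, from which depth was recovered. Spreadsheet remnants in 5 unnamed columns (31 rows) were left out.

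Values were analysed as log2(RPKM + 1) in limma 3.58.1 (R 4.3.3) with 1 mean per group, a mean-variance trend and all 9 libraries. Tests were two-sided, with Benjamini-Hochberg adjustment over the 11542 genes tested and a threshold of 0.05. The procedure was tested on simulated data. Errors are SE for log2 fold changes and SD for RPKM. Alternatives were pseudocounts of 0.1 and 0.5, no filter, a filter at RPKM 5, median-of-ratios rescaling, a replicate block, sample weights, voom, fits of only the groups compared, each library left out and, chosen after seeing the data, an arithmetic mid-parent.

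The members and lists were chosen with earlier results of these data known. Every library's value is given for chains called with a log2 fold change of at least 1 in size, tested chains of types I, III, IV, V and VI, the 5 most abundant chains and those called against the mid-parent value. Of the handling genes the 8 with the smallest p in 129 minus B6 are described. Any other gene named was chosen after its values were seen. Lepre1, Leprel1, Leprel2 and Glt25d1 are the files' symbols for P3h1, P3h2, P3h3 and Colgalt1. Markers of macrophages (37.5 to 54.8 RPKM summed in F1, 21.0 to 46.1 in 129, 42.7 to 53.4 in B6) and of epithelium and mesothelium (15.1 to 17.7, 15.0 to 17.5 and 7.84 to 8.98 in the same order, Krt14 at 0 in all) were also measured. RefSeq tables supplied promoter sequence. GENCODE exons of GRCm38 were used only to keep windows that hold an exon from being printed, as for Col20a1. The motif shares were taken over all windows, with or without an exon.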

Additional observations from a re-analysis of the deposited data

How the results depend on the processing

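Counts of chains called in 129 minus B6 were 15 to 19 higher and 3 to 7 lower over all alternatives other than leaving out a library, against 17 and 4, with the 7 lower coming from no filter, where 3 chains below the testing level were called lower. Leaving out 1 library gave 17 to 18 higher and 4 to 5 lower. In F1 minus B6 the same gave 4 to 9 higher and 4 to 5 lower (9 and 5 with all libraries), and in F1 minus 129 it gave 1 to 2 higher and 15 to 16 lower (2 and 15 with all libraries). In F1 minus mid-parent it gave 0 to 2 higher and 2 to 10 lower (2 and 9 with all libraries), and the joint test of the 3 groups called 21 to 22 chains (24 with all libraries). Of the handling genes, 16 to 24 were called, 13 to 18 higher and 2 to 7 lower.

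A filter at RPKM 5 left 1 chain higher in F1 minus 129 and 1 higher in F1 minus mid-parent, with fewer chains tested. In F1 minus mid-parent, no filter gave 2 higher and 4 lower, and median-of-ratios rescaling 4 higher and 5 lower. Voom gave 4 higher and 9 lower, and the arithmetic mid-parent 1 higher and 12 lower. The cause of these shifts was not tested. Median-of-ratios rescaling gave 3 handling genes lower. Size factors were 0.981 to 1.031. Col11a2 in 129 minus B6, not called at -0.01, became 0.02 with rescaling and -0.05 to 0.04 with 1 library left out. The same gave -0.26 to 0.01 for Col12a1 and -0.02 to 0.06 for Col7a1, neither called, and Col7a1 was -0.02 with sample weights. Col6a5 in F1 minus mid-parent became 0.35 at a pseudocount of 0.1 and 0.82 with voom.

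Replicate numbers are shared between groups, but over all genes tested same-numbered libraries did not consistently deviate together: correlations of their deviations from group means were -0.192 to 0.215, and 5 of 9 libraries correlated best with their own number. The collagen share of reads was nevertheless highest in replicate 2 of each group (3.3% in F1, 4.16% in 129, 3.15% in B6). With the number as a replicate block, 17 chains were higher and 4 lower in 129 minus B6, 10 and 5 in F1 minus B6, 1 and 16 in F1 minus 129, and 1 and 9 in F1 minus mid-parent. The block ended the calls of Col11a2 in F1 minus 129 (adjusted p = 0.0716, limma) and of Col11a2 (0.0533) and Col4a2 (0.052) in F1 minus mid-parent. F1 libraries are the deepest, and chains below 1 RPKM rest on few reads.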
